A study of Homo sapiens with 12 samples.

Results

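The comparison set the response of HG3 cells to mutant U1 against the response of MEC1 cells to the same mutation. Both are established B cell lines, and the labels give chronic lymphocytic leukaemia as their disease. It rested on 4 groups of 2 technical replicates each: HG3 with U1 g.3A>C, HG3 with wild-type U1, MEC1 with U1 g.3A>C and MEC1 with wild-type U1. These are 8 of the 12 libraries of the series, chosen by their labels alone. The remaining 4 libraries, of another line, JVM3, were left out of the main test of the difference. They served to choose junctions and genes, for single side values and in 1 alternative fit with all 12 libraries. All libraries were of ribodepleted total RNA. For each gene the mutant over wild-type log2 fold change was taken in each line, and the MEC1 value was subtracted from the HG3 value, so a positive difference means a higher mutant response in HG3. The replicates are technical, so every p-value here measures the spread between technical replicates of 1 culture pair per line, and a difference between the lines cannot be told apart from one between the cultures that were sequenced. The sources used here do not say how the mutation was introduced into the lines or whether each is 1 clone.

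U1 is the small nuclear RNA of the U1 snRNP, the particle that first binds the donor, or 5' splice site, where an intron begins. The 5' end of U1 forms base pairs with the last bases of the exon and the first bases of the intron, and the third base of U1 faces the sixth base of the intron. Wild-type U1 has A there, which pairs with T, and U1 with the A3C change has C, which pairs with G. Donors with G at the sixth intron base are therefore the ones that the mutant can pair with more fully.

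The sequence of U1 is shown because the mutation lies in it. Its first 30 bases, from the RNU1-1 transcript of GENCODE release 29 (chromosome 1), read 5' to 3' as follows, with base 3 in capitals.
RNU1-1: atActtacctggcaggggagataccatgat

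Donors of junctions described further on are shown as the last 3 exon bases followed by the first 8 intron bases, with the sixth intron base in capitals. They were read from GENCODE release 29 transcripts that run through the site, and the junctions are given in hg19. The first 2 lines are donors used more in the mutant columns of both lines, and KAT2A used its donor more in mutant MEC1 and less in mutant HG3. The next 2 are the donors that EWSR1 and GAS5 used less. The last 2 are the annotated donors of CD44 and MSI2 that mutant columns used less.
EWSR1, chr22:29695270-29695589, + strand: agtgtaagGcc
GAS5, chr1:173834420-173834648, - strand: tgggtaagGac
KAT2A, chr17:40270421-40271263, - strand: caagtaagGct
EWSR1, chr22:29695321-29695589, + strand: cgggtaggTgc
GAS5, chr1:173834420-173834609, - strand: aaggtacaTgt
CD44, chr11:35211612-35236399, + strand: ccagtaagGag
MSI2, chr17:55339553-55478740, + strand: aaggtaagTag

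RNU1-1, a gene of U1 itself, rose in mutant HG3, and its higher level in mutant MEC1 did not pass (adjusted p = 0.104 by edgeR's quasi-likelihood test with Benjamini-Hochberg adjustment). Its level was 260 and 171 CPM (counts scaled to the library's size, with TMM factors) in mutant HG3, against 30.7 and 30 CPM in wild-type HG3. In MEC1 it was 24.0 and 22.6 CPM in mutant libraries, against 12.8 and 12.3 CPM in wild-type libraries. The groups did not overlap in either line, and the ratio of means was 7.11 in HG3 and 1.85 in MEC1. The log2 difference of responses was 1.94 (SE 0.41, adjusted p = 0.0395 by edgeR). Leaving out any 1 wild-type HG3 library or any 1 MEC1 library took the adjusted p to between 0.122 and 0.166 by edgeR. The other 24 U1 genes, summed, had mutant over wild-type ratios of 0.778 in HG3 and 0.867 in MEC1. U1 genes share most of their sequence, which leaves it uncertain to which gene a read belongs, and the counts hold mutant and wild-type U1 together.

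The libraries held 29880079 to 37983392 counts in genes. The share of reads outside annotated features averaged 24.3% in mutant and 22.3% in wild-type HG3 libraries, and 20% in mutant and 18.3% in wild-type MEC1 libraries. The 9 B cell markers, such as MS4A1 and CD79A, summed to 5650 to 6290 CPM in HG3 libraries and 4000 to 4350 CPM in MEC1 libraries. The T cell list summed to at most 1.18 CPM in any of the 8 libraries, with CD3D and CD3G at 0, and HBA1 and HBA2 of the erythroid list were at 0 as well. Myeloid genes summed to 2.03 to 6.66 CPM and NK genes to 0.318 to 0.484 CPM in HG3 and 13.9 to 15.2 CPM in MEC1. Fibroblast genes summed to 5.26 and 4.87 CPM in mutant against 4 and 4.15 CPM in wild-type HG3, and to 2.69 and 2.23 CPM against 1.12 and 0.98 CPM in MEC1. Epithelial genes summed to 2.00 and 2.35 CPM against 4.38 and 5.29 CPM in HG3, and to 6.57 and 7.15 CPM against 15.2 and 16 CPM in MEC1. A part of these low markers in the results was not tested.

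The mutant response differed between the lines at 4368 of 19951 genes tested (21.9%). The difference was above 0 at 1896 genes (9.5%) and below 0 at 2472 (12.4%), with a median over all genes of 0. At 668 genes (3.35%) it was at least 1 log2 unit, above 0 at 289 (1.45%) and below 0 at 379 (1.9%). Within the lines, 7844 genes (39.3%) changed in mutant HG3 and 7535 (37.8%) in mutant MEC1. Both lists held 4492 genes, which is 57.3% of the HG3 list and 59.6% of the MEC1 list. The direction was shared at 3783 (84.2%). Across 11233 genes with at least 2 CPM in each line the 2 responses had a correlation of 0.56, a description over genes, which share their libraries. Of these 11233 genes, 3870 were called for the difference (34.5%).

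Genes called for the difference moved in several ways. Of the 4368, 417 fell in mutant HG3 and rose in mutant MEC1, and 291 rose in HG3 and fell in MEC1. A further 828 fell and 574 rose in HG3 without a call in MEC1, and 587 fell and 658 rose in MEC1 without a call in HG3. Genes that fell in both lines numbered 330 with the larger fall in HG3 and 201 with the larger fall in MEC1. Genes that rose in both numbered 185 with the larger rise in HG3 and 181 with the larger rise in MEC1. The remaining 116 were called in neither line on its own.

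**Figure D1:**
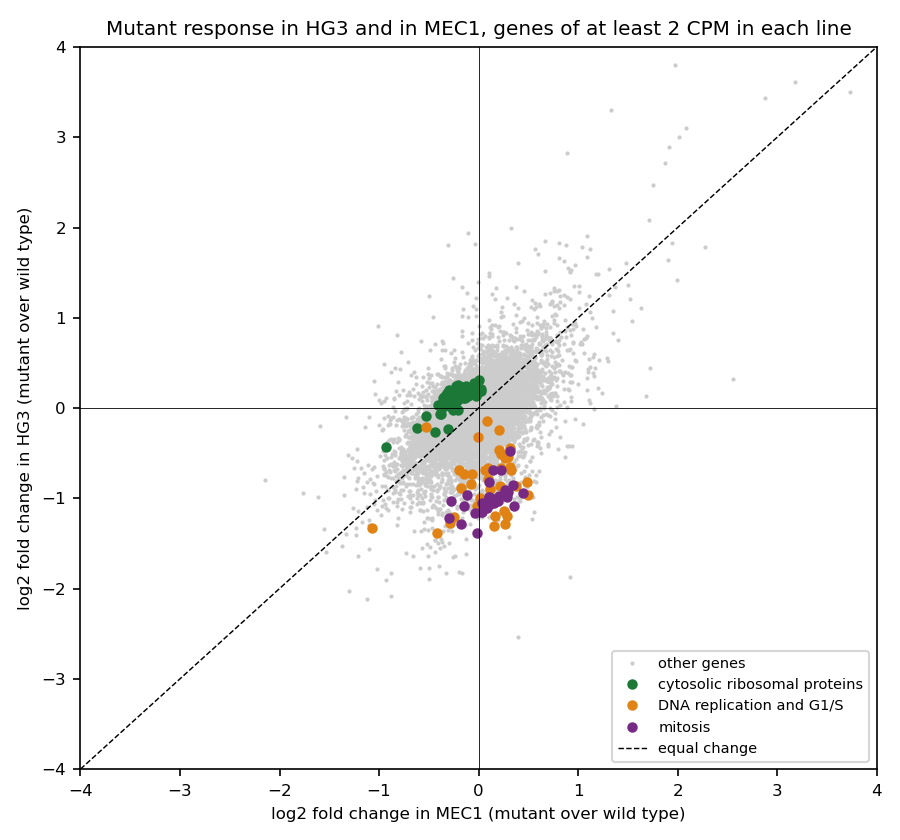
Log2 fold change of mutant over wild type in HG3 (vertical) against that in MEC1 (horizontal) for 11232 genes of at least 2 CPM in each line, each point 1 gene. Mitosis and DNA replication genes lie mostly below the dashed line of equal change, ribosomal protein genes above it, and 1 gene, TMEM151B, lies outside the axes.

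Cell cycle genes gave the lowest list medians of the difference. All members tested fell in mutant HG3, while in mutant MEC1 more members rose than fell. Within the lines, 20.4% of all genes fell in HG3 and 19.0% in MEC1, and 18.9% rose in HG3 and 18.7% in MEC1. For the difference, 12.4% of all genes were called below 0 and 9.5% above 0. All 32 genes of the mitosis list, which encode cyclins, kinases, kinesins and spindle checkpoint proteins, had a difference called below 0, and all 32 fell in HG3. In MEC1 16 of them rose, 5 fell and the others did not pass. The median difference was -1.17, from medians of -1.03 in HG3 and 0.11 in MEC1, where the median over all genes was 0 in each. The lists were chosen with earlier results of these data known, and the counts are descriptions.

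CDC20 encodes the activator of the anaphase-promoting complex. Its level was 35.1 and 35.2 CPM in mutant against 75.8 and 73.0 CPM in wild-type HG3 libraries, and 167 and 160 CPM against 130 and 125 CPM in MEC1. The groups did not overlap in either line and moved in opposite directions, with a log2 difference of -1.44 (SE 0.07, adjusted p = 9.07e-17 by edgeR). MKI67, the gene of the proliferation marker Ki-67, stood at 183 and 179 CPM in mutant against 348 and 348 CPM in wild-type HG3, and at 690 and 808 CPM against 555 and 541 CPM in MEC1. It too fell in HG3 and rose in MEC1 (difference -1.39, SE 0.08). TPX2, a spindle assembly factor gene, had 71.9 and 66.1 CPM against 129 and 134 CPM in HG3, and 236 and 243 CPM against 196 and 194 CPM in MEC1. The same opposite pattern was seen for CENPF, a kinetochore protein gene (log2 fold changes of -1.05 in HG3 and 0.15 in MEC1). BIRC5, which encodes survivin, fell in HG3 and did not pass in MEC1, with 29.9 and 28.2 CPM against 75.5 and 76.1 CPM in HG3, and 131 and 125 CPM against 128 and 130 CPM in MEC1. TOP2A, the gene of topoisomerase II alpha, fell in both lines, by 1.08 on the log2 scale in HG3 and by 0.15 in MEC1. Within the list the difference ran from -1.44 to -0.76.

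Of 37 genes of DNA replication and the G1/S transition, 36 had a difference called below 0 and 1 above 0, with a median of -0.88. All 37 fell in HG3, while 20 rose and 8 fell in MEC1. E2F1, which encodes a transcription factor that activates S-phase genes, had the lowest difference, -1.55 (SE 0.09). Its level was 10.6 and 11.4 CPM in mutant against 26.9 and 26.9 CPM in wild-type HG3, and 88.9 and 85.5 CPM against 74.1 and 71.0 CPM in MEC1. RRM2, the small subunit gene of ribonucleotide reductase, was at 58.6 and 60.1 CPM against 132 and 140 CPM in HG3, and at 218 and 223 CPM against 194 and 199 CPM in MEC1. TK1, the thymidine kinase gene of S phase, had 18.4 and 16.9 CPM against 45.0 and 42.4 CPM in HG3, and 122 and 110 CPM against 105 and 103 CPM in MEC1. In all 3 the mutant libraries were below the wild-type ones in HG3 and above them in MEC1.

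Other members differed in size. MCM10, a replication initiation gene, had a difference of -1.39 and CCND2, the cyclin D2 gene, one of -1.01. CCND2 was also far higher in HG3, at 1030 and 1010 CPM in mutant and 1680 and 1610 CPM in wild-type libraries, than in MEC1, at 57.9 and 56.1 CPM in mutant and 45.3 and 45.5 CPM in wild-type libraries. LIG1, the DNA ligase I gene, fell by 1.33 in HG3 and by 1.07 in MEC1 on the log2 scale, with a difference of -0.26. POLD1, which encodes the catalytic part of a replicative DNA polymerase, fell by 1.38 in HG3 and by 0.42 in MEC1. CDK6, which encodes a G1 kinase, was the exception, with log2 fold changes of -0.21 in HG3 and -0.53 in MEC1, a difference of 0.31.

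**Figure D2:**
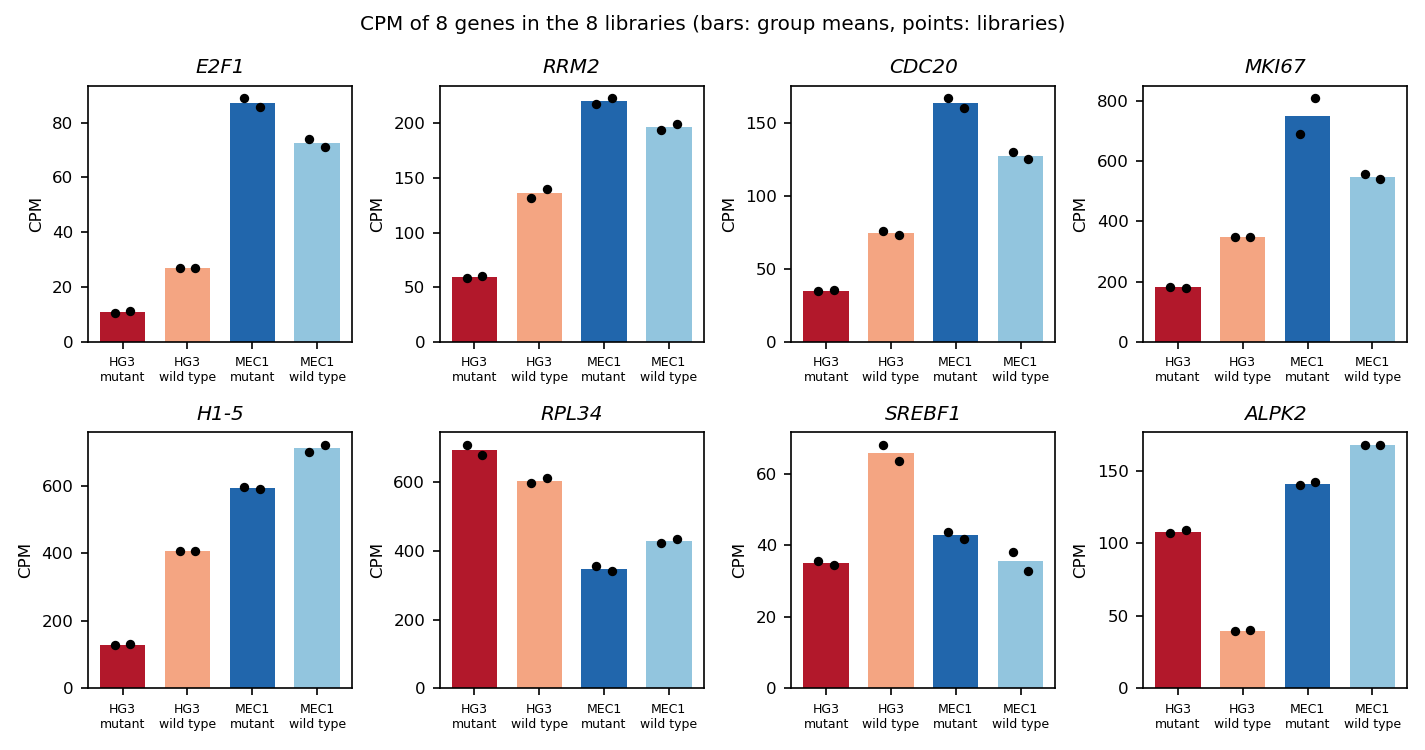
CPM of 8 genes in the 8 libraries, with bars at group means and points for the 2 technical replicates. E2F1, RRM2, CDC20 and MKI67 were lower in mutant than in wild-type HG3 and higher in mutant than in wild-type MEC1, RPL34 and ALPK2 rose in HG3 and fell in MEC1, H1-5 fell in both lines and SREBF1 moved as E2F1 did.

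Promoters of cell cycle genes are shown because the 2 lists moved together. The 300 bases are from RefSeq (GRCh38.p14), 250 before and 50 after the annotated start. Capitals mark motifs on either strand, which do not overlap here. They are TTTGAA, known from promoters of mitotic genes, and CCAAT, the box bound by the factor NF-Y. The others, TTTGGCGC and TTTCCCGC, are forms of the E2F site.
CDC20, chr1:43358731-43359030, + strand: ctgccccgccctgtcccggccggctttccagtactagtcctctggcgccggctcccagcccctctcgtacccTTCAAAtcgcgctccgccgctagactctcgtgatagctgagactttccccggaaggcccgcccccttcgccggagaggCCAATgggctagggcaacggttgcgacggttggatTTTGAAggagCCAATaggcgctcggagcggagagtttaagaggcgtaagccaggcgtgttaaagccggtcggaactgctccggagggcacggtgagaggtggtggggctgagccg
E2F1, chr20:33686336-33686635, - strand: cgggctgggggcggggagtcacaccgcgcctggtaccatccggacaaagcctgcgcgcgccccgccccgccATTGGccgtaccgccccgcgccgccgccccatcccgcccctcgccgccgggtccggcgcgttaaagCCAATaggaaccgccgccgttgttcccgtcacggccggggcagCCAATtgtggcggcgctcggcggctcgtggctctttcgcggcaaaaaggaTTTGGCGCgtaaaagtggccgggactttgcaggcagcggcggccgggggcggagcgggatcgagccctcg

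TTTGAA was found in 18 of 26 promoters of mitosis genes (69.2%) that the table held, in 2 of 31 promoters of the DNA replication list (6.45%) and in 1260 of 11835 promoters of tested genes (10.6%). TTTGGCGC or TTTCCCGC was found in 2 mitosis promoters (7.69%), 16 replication promoters (51.6%) and 409 of all (3.46%). CCAAT stood in 20 of the mitosis promoters (76.9%), 17 of the replication promoters (54.8%) and 4363 of all (36.9%). A match is a description of these letters in this window and not a site of binding.

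Replication-dependent histone genes, which supply the histones of newly made chromatin, fell in both lines and more in HG3. Of 42 genes listed, 19 were matched and tested. All 19 fell in HG3 and 18 fell in MEC1, with medians of -1.15 and -0.40. The difference was called below 0 at 18 and above 0 at 1, with a median of -0.78. H1-5, a linker histone gene, was at 129 and 130 CPM in mutant against 407 and 406 CPM in wild-type HG3, and at 598 and 590 CPM against 700 and 722 CPM in MEC1. Its mutant libraries were lowest in both lines, and the difference was -1.39 (SE 0.05, adjusted p = 3.31e-19 by edgeR). The core histone genes H3C12 and H4C3 had differences of -1.18 and -1.10, and the linker histone gene H1-3 one of -1.08. H2AC6, the exception, fell by 0.21 in HG3 and by 0.43 in MEC1, and its difference did not pass without 5 of the 8 libraries taken singly (adjusted p 0.0571 to 0.16 by edgeR).

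Cytosolic ribosomal protein genes moved the other way. Of 76, 55 rose and 5 fell in HG3, while none rose and 63 fell in MEC1. The difference was called above 0 at 70 and below 0 at none, with a median of 0.35 from medians of 0.15 in HG3 and -0.21 in MEC1. The share called was 92.1%, beside 34.5% over genes of at least 2 CPM in each line. The shifts were small for each gene. RPL34 stood at 710 and 680 CPM in mutant against 599 and 612 CPM in wild-type HG3, and at 356 and 341 CPM against 423 and 434 CPM in MEC1 (difference 0.50, SE 0.05, adjusted p = 8.19e-09 by edgeR). RPS27 and RPS4X had the same opposite pattern, each with a difference of 0.47. RPL12 was one of the 5 that fell in HG3, by 0.43, and it fell by 0.93 in MEC1. The list kept its direction with DESeq2's scaling factors and without any 1 library, with medians of 0.32 to 0.39.

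Host genes of small nucleolar RNAs, many of which share with ribosomal protein genes a start that ties translation to growth signals, had 10 of 20 members called above 0 and 2 below 0 (median 0.20). Of the 20, 13 rose and 1 fell in HG3, and 4 rose and 5 fell in MEC1. SNHG32 rose in HG3, with 186 and 181 CPM in mutant against 132 and 137 CPM in wild-type libraries, and did not pass in MEC1, with 168 and 166 CPM against 176 and 176 CPM. SNHG8 and ZFAS1 rose in HG3 and fell in MEC1 (differences 0.42 and 0.37), and SNHG29 rose in HG3 alone by the threshold (difference 0.31).

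Transcripts of the mitochondrial genome were lower in mutant MEC1. Of 15 tested, 3 fell and 2 rose in HG3, 9 fell in MEC1, and 5 differences were called, each above 0 (median 0.29). This share, 33.3%, is near the 34.5% over genes of at least 2 CPM in each line, and the median ran from 0.07 to 0.52 over pairings of replicates. MT-ND2, a complex I subunit gene, stood at 32.8 and 28.3 CPM in mutant against 33.2 and 32.0 CPM in wild-type HG3, and at 46.8 and 38.6 CPM against 95.5 and 88.3 CPM in MEC1. The groups were close in HG3 and far apart in MEC1 (difference 1.01, SE 0.13, adjusted p = 0.000133 by edgeR). MT-ND1 fell in both lines, by 0.52 in HG3 and by 1.31 in MEC1, and MT-ND5 in MEC1 alone by the threshold. Without either wild-type HG3 library the difference of MT-ND1 had an adjusted p of 0.0855 or 0.102 by edgeR. MT-RNR1, a ribosomal RNA gene in ribodepleted libraries, had a difference of 0.26 that did not pass without most single libraries (adjusted p up to 0.242 by edgeR). Nuclear genes of oxidative phosphorylation had a median near 0, -0.08, with 1 of 44 called above 0 and 7 below 0. Their share called, 18.2%, was below that 34.5%.

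Lipid synthesis genes were lower in the HG3 response. Of 31 genes of cholesterol and fatty acid synthesis, 19 had a difference called below 0 and 1 above 0 (median -0.29). Their share called was 64.5%, beside 34.5% over genes of at least 2 CPM in each line. In HG3 4 rose and 13 fell, and in MEC1 20 rose and 4 fell. SREBF1, which encodes the transcription factor of fatty acid synthesis genes, was at 35.6 and 34.5 CPM in mutant against 68.1 and 63.5 CPM in wild-type HG3, and at 43.8 and 41.8 CPM against 38.2 and 32.8 CPM in MEC1. The groups did not overlap in either line and moved in opposite directions (difference -1.18, SE 0.09, adjusted p = 7.36e-12 by edgeR). SCD, the stearoyl-CoA desaturase gene, and FADS2, another desaturase gene, also fell in HG3 and rose in MEC1, with differences of -0.79 and -0.65. FADS1 fell in HG3 by 0.66 and did not pass in MEC1. FASN, the fatty acid synthase gene, had log2 fold changes of -0.22 in HG3 and 0.59 in MEC1. PMVK, a kinase gene of the mevalonate pathway, was the 1 member above 0 (0.27), and it fell in MEC1 and did not pass in HG3. Its difference did not pass without 5 of the 8 libraries taken singly (adjusted p 0.0907 to 0.126 by edgeR).

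Glycolysis and heat shock genes went the same way by smaller amounts. Of 33 glycolysis and hypoxia genes, 16 differences were called below 0 and 3 above 0 (median -0.21), with 4 genes that rose and 16 that fell in HG3, and 12 that rose and 6 that fell in MEC1. LDHA, the lactate dehydrogenase A gene, was at 469 and 457 CPM in mutant against 632 and 658 CPM in wild-type HG3, and at 524 and 525 CPM against 509 and 512 CPM in MEC1. It fell in HG3 and did not pass in MEC1, whereas ENO2 and TPI1 fell in HG3 and rose in MEC1. ALDOA rose in MEC1 and did not pass in HG3. Of 20 heat shock chaperone genes, 11 differences were called below 0 and 1 above 0 (median -0.20). STIP1, a co-chaperone gene, had 150 and 146 CPM against 166 and 162 CPM in HG3, and 273 and 267 CPM against 190 and 193 CPM in MEC1. HSPA8, the constitutive Hsp70 gene, also fell in HG3 and rose in MEC1 (difference -0.43), and HSPH1 and HSPE1 fell in HG3 alone by the threshold.

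**Figure D3:**
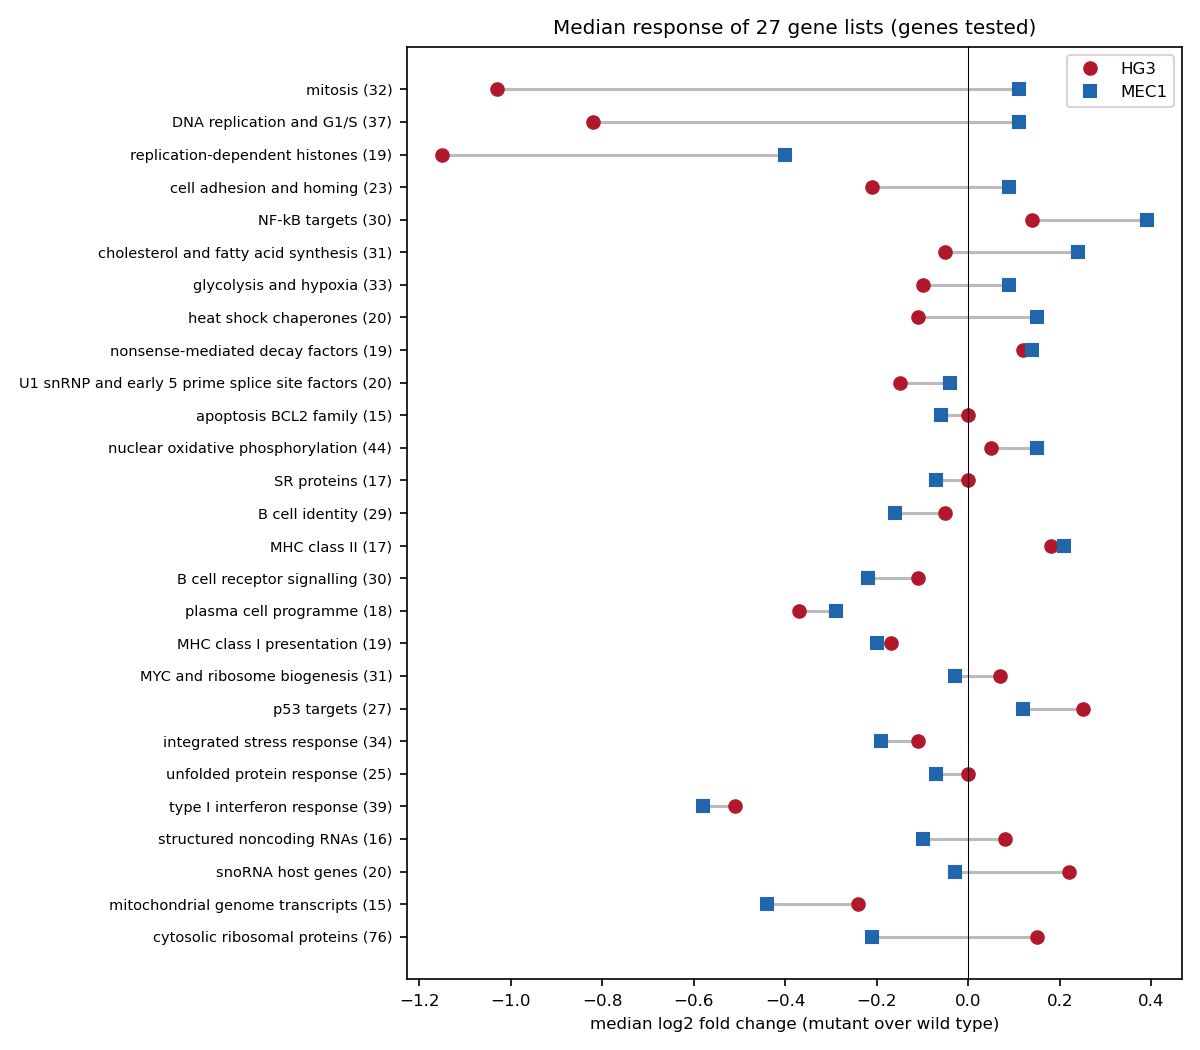
Median log2 fold change of mutant over wild type in HG3 (circles) and MEC1 (squares) for 27 gene lists, with the number of genes tested in brackets, ordered by the median difference. Mitosis, DNA replication and histone genes have the widest gaps, with HG3 lower, and ribosomal protein genes are the list at the other end.

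Targets of NF-kB, the transcription factor family of inflammatory and survival signals in B cells, were tested for 30 genes. Of these, 15 rose and 6 fell in HG3, and 22 rose and 2 fell in MEC1. The difference was called below 0 at 16 and above 0 at 3 (median -0.29). That is a share of 63.3%, beside 34.5% over genes of at least 2 CPM in each line. CCL22, a chemokine gene, was at 99.2 and 92.8 CPM in mutant against 86.3 and 78.3 CPM in wild-type HG3, and at 93.2 and 89.0 CPM against 41.3 and 38.0 CPM in MEC1. It rose in both lines, by 0.22 and 1.2 on the log2 scale. TNF, a cytokine gene, fell in HG3, at 17.4 and 17.9 CPM against 28.2 and 27 CPM, and rose in MEC1, at 41.6 and 37.7 CPM against 31.4 and 29.2 CPM. IRF1 moved as TNF did (difference -0.64), CD83 rose in MEC1 alone by the threshold (-0.56), and CD80, a costimulatory receptor gene, had its larger rise in HG3 (0.44).

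Adhesion and homing genes had 9 of 23 differences called below 0 and 4 above 0 (median -0.39). The share called was 56.5%, beside 34.5% over genes of at least 2 CPM in each line. The median was loose, from -0.49 to -0.08 over pairings of replicates. The integrin genes ITGAL, ITGB7 and ITGB2 fell in HG3 and rose in MEC1, with differences of -0.61, -0.58 and -0.66. CXCR4, the receptor that holds B cells in marrow and lymphoid tissue, had 53.5 and 49.5 CPM in mutant against 53.7 and 53 CPM in wild-type HG3, and 25.2 and 24.2 CPM against 14.4 and 14.7 CPM in MEC1. It rose in MEC1 by 0.76 on the log2 scale and did not pass in HG3.

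Type I interferon response genes fell in both lines. Of 39, 34 fell and 1 rose in HG3, and 37 fell and 1 rose in MEC1, with medians of -0.51 and -0.58. The difference was called above 0 at 8 and below 0 at 5, a share of 33.3% that is near the 34.5% over genes of at least 2 CPM in each line. OAS3, a sensor of double-stranded RNA, fell more in HG3, with 35.8 and 36.4 CPM in mutant against 81.9 and 81.3 CPM in wild-type HG3, and 28.0 and 28.9 CPM against 36.0 and 37.6 CPM in MEC1. OAS2 fell more in MEC1 (difference 0.38). IFIH1, the gene of the RNA sensor MDA5, rose in HG3 and fell in MEC1 (difference 0.64). TRIM22, an antiviral factor gene, fell by 0.09 in HG3 and by 0.86 in MEC1.

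Among 27 p53 targets, 7 differences were called above 0 and 3 below 0 (median 0.05), a share of 37.0% that is near the 34.5% over genes of at least 2 CPM in each line. TP53INP1, an autophagy and stress gene, was at 141 and 140 CPM in mutant against 84.7 and 85.8 CPM in wild-type HG3, and at 52.4 and 54.0 CPM against 68.0 and 68.7 CPM in MEC1, a difference of 1.08. XPC, a DNA damage sensor gene, also rose in HG3 and fell in MEC1 (0.44), and SESN2 rose in HG3 alone by the threshold (0.44).

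B cell genes split in both directions. Of 30 B cell receptor signalling genes, 5 differences were called above 0 and 9 below 0 (median -0.03), and of 29 B cell identity genes 8 were above 0 and 8 below 0 (median -0.03). The shares called were 46.7% and 55.2%, beside 34.5% over genes of at least 2 CPM in each line. SYK, the kinase gene next to the receptor, fell in both lines, with 50 and 51.0 CPM in mutant against 104 and 103 CPM in wild-type HG3, and 35.2 and 36.2 CPM against 52.0 and 52.8 CPM in MEC1. LYN, a Src-family kinase gene, rose in HG3 and fell in MEC1 (difference 0.43), CR2 fell more in MEC1 (0.41) and BLNK fell in MEC1 alone by the threshold (0.42). PAX5, the transcription factor gene of B cell commitment, fell in HG3, at 177 and 179 CPM against 217 and 210 CPM, and rose in MEC1, at 286 and 287 CPM against 228 and 216 CPM. IRF4 went down in MEC1 alone by the threshold (0.46), and SPIB fell in HG3 and rose in MEC1 (-0.95).

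Stress response lists had medians near 0. In the integrated stress response 7 of 34 differences were called above 0 and 7 below 0, among them SARS1, a tRNA synthetase gene (0.51), VLDLR (0.81) and SLC7A5, an amino acid transporter gene (-0.78). In the unfolded protein response 9 of 25 were above 0 and 2 below 0, with SEL1L (0.52), the sensor gene ERN1 (0.62), the chaperone gene HYOU1 (0.39) and EDEM1 (0.34). The shares called in these lists were 41.2% and 44.0%, beside 34.5% over genes of at least 2 CPM in each line. Medians of the lists of U1 snRNP and early donor factors, SR proteins, nonsense-mediated decay factors, BCL2 family genes, MHC class I and class II genes, plasma cell genes and MYC and ribosome biogenesis genes lay between -0.11 and 0.00. Their shares called ran from 33.3% for BCL2 family genes to 55.6% for plasma cell genes, and each list had calls in both directions. The 16 structured noncoding RNAs tested had a median of 0.19, with 4 called above 0.

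Among single genes with at least 2 CPM in each line, some differences were larger than those of the lists. TLR4, a receptor gene for bacterial lipopolysaccharide, was at 0.742 and 0.859 CPM in mutant against 5.08 and 4.22 CPM in wild-type HG3, and at 6.05 and 7.24 CPM against 4.61 and 5.46 CPM in MEC1. It fell in HG3 and rose in MEC1 (difference -2.94, SE 0.25, adjusted p = 4.15e-11 by edgeR). GBP5, an interferon-induced GTPase gene, moved likewise (-2.80, SE 0.31). SYTL2, a vesicle transport gene, did not pass in HG3, at 6.19 and 5.50 CPM in mutant against 4.71 and 4.64 CPM in wild-type libraries, and rose in MEC1, at 7.84 and 10.2 CPM against 1.32 and 1.76 CPM. CTNND1, which encodes p120 catenin, stood at 188 and 194 CPM in mutant against 177 and 172 CPM in wild-type HG3, and at 30.3 and 29.3 CPM against 8.93 and 9.73 CPM in MEC1. It rose in both lines, by 0.13 and 1.68 on the log2 scale. ABCG1, a cholesterol exporter gene, fell in HG3 alone by the threshold (difference -1.67).

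On the positive side, ALPK2, a kinase gene, was at 107 and 109 CPM in mutant against 39.2 and 40.1 CPM in wild-type HG3, and at 140 and 142 CPM against 168 and 168 CPM in MEC1 (difference 1.70, SE 0.06, adjusted p = 3.31e-19 by edgeR). ABCA9, a lipid transporter gene, rose in both lines, to 18.4 and 19.1 CPM against 1.75 and 2.08 CPM in HG3, and to 2.99 and 4.68 CPM against 1.29 and 1.73 CPM in MEC1. ASAH1, the acid ceramidase gene, was at 327 and 331 CPM against 160 and 165 CPM in HG3, and at 115 and 119 CPM against 128 and 133 CPM in MEC1. It rose in HG3 and fell in MEC1 (difference 1.18). The same opposite pattern was seen for CHI3L2, a chitinase-like gene (1.32), RBL2, the gene of the cell cycle repressor p130 (1.01), SBF2 (1.73), MAPK10, the JNK3 gene (1.43), UNC13B (1.47) and LINC02615 (1.63). SMO, the Hedgehog signal transducer gene, rose in both lines, more in HG3 (1.67). FBXO32, a ubiquitin ligase gene (2.05), and CFAP70 (1.85) rose in HG3 and did not pass in MEC1. RPL13AP5, a processed copy of a ribosomal protein gene, had a difference of 1.92 (adjusted p = 0.0263 by edgeR), lost without 7 of the 8 libraries taken singly, and its reads may belong to its parent gene. PLS3, which was near 0 in MEC1, fell in both lines, by 0.28 in HG3, at 279 and 274 CPM against 329 and 340 CPM, and by 1.28 in MEC1, where it had at most 0.815 CPM (difference 1.00).

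The largest fitted differences belonged to genes near 0 in 1 line, and these rested on few counts. HTRA1 had 5 and 5 counts in mutant and 0 and 0 in wild-type HG3 libraries, beside 265 and 248 counts in mutant and 405 and 382 in wild-type MEC1 libraries. TBL1X had 3 and 4 counts against 0 and 0 in HG3, with 1142 and 1007 counts in mutant and 1328 and 1062 in wild-type MEC1 libraries. FBN2 had 3744 and 3886 counts in mutant and 5096 and 4018 in wild-type HG3 libraries, beside 5 and 1 counts in mutant and 0 and 0 in wild-type MEC1 libraries. MED12L, FAM89A, PDE3B, ACVR2A, KIAA1671, MGMT and CADPS2 were of the same kind. RUNDC3A-AS1, with 72 and 74 counts in mutant against 0 and 4 in wild-type HG3, PC, with 47 and 57 against 10 and 5, LHFPL3-AS2, with 20 and 23 against 2 and 0 in MEC1, FCRL2, with 77 and 92 against 352 and 342 in HG3, and PRODH, with 14 and 10 against 3 and 0 in MEC1, had more. The calls of HTRA1, RUNDC3A-AS1, PC, LHFPL3-AS2 and FCRL2 held without any 1 library, and each of the other 10 was lost without at least 1 library. Over the 98 genes of at least 10 CPM in MEC1 with under 1% of that level in HG3, HG3 libraries held 0.302% and 0.3% of the MEC1 level in mutant and 0.237% and 0.235% in wild-type libraries. Over the 167 genes low in MEC1 by the same limits, MEC1 libraries held 0.204% and 0.19% of the HG3 level in mutant and 0.164% and 0.166% in wild-type libraries. Whether such traces play a part in the calls of genes near 0 was not tested.

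Splice site choice was read from junction counts, given as 1 pooled column per line and U1 status, so junctions carry no test. The use of a junction is its share of all reads that end at the same acceptor, in percent, and a change is mutant minus wild type in points. The 4 columns held 15976355 to 16850260 junction reads. Intervals are 95% Wilson intervals for a share and intervals built from these for a difference of changes, and they cover counting error only. Of 55366 junctions with at least 50 acceptor reads in each of the 4 columns, the changes of the 2 lines differed by at least 20 points at 338 (0.61%), which lie at 204 of 22942 acceptors (0.889%). A change of at least 20 points was seen at 608 junctions in HG3 (1.1%) and 720 in MEC1 (1.3%). Both sets held 354 junctions, which is 58.2% of the HG3 set and 49.2% of the MEC1 set, and all 354 had the same direction in both lines.

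Junctions chosen in JVM3 alone gave close values in the 2 lines. Of 150 used more by at least 20 points in mutant JVM3, 139 also gained in HG3 and 139 in MEC1, with median changes of 29.9 points (quartiles 16.7 and 45.7) and 27.4 points (15.8 and 42.7). The gain was larger in HG3 at 85 of the 150. Of 147 used less in mutant JVM3, the median changes were -31.4 points in HG3 and -28.3 points in MEC1. Use is a share of an acceptor's reads, so a gain at 1 junction forces losses at its competitors. Many of the 147 mirror a junction of the 150, so they are not a separate set of results. Genes chosen in JVM3 differed by direction. The 188 genes that rose by at least 1 log2 unit in mutant JVM3 (edgeR, adjusted p under 0.05) had a median of 1.57 in HG3 and 1.32 in MEC1, and 141 rose in HG3 and 131 in MEC1, where 18.9% and 18.7% of all genes rose. Their difference was called above 0 at 29 and below 0 at 3. The 117 genes that fell in JVM3 had a median of -1.23 there, -0.36 in HG3 and -0.42 in MEC1. Of these, 25 of 117 were called as fallen in HG3 and 32 in MEC1, where 20.4% and 19.0% of all genes fell. By sign alone, 84 of the 117 were lower in mutant HG3 and 76 in mutant MEC1. Their difference was called above 0 at 2 and below 0 at 10.

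**Figure D4:**
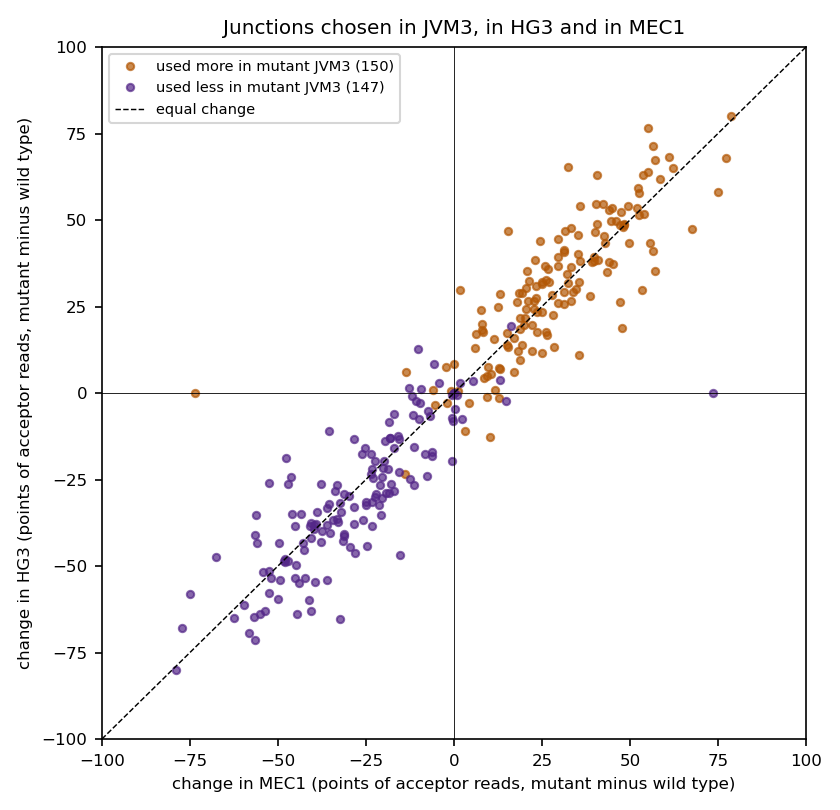
Change in use in HG3 (vertical) against that in MEC1 (horizontal), in points of acceptor reads, of 150 junctions used more and 147 used less in mutant JVM3, each point 1 junction. Most points follow the dashed line of equal change, and the 2 at 0 in HG3 and beyond 70 points in MEC1 share 1 acceptor on chromosome 17 with no gene matched. Many points of the 2 sets are mirrored competitors at the same acceptor.

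The sixth intron base could be read at 13316 of 53372 tested junctions with a gene (24.9%), those whose donor lies within an exon of another transcript. With G at this base, 215 of 2989 junctions gained at least 10 points in HG3 (7.19%) and 215 in MEC1 (7.19%). With T, 76 of 5689 gained in HG3 (1.34%) and 101 in MEC1 (1.78%). Over all tested junctions with a gene the shares were 2.21% and 2.5%. Losses of at least 10 points were seen at 2.01% and 1.94% of G donors and at 2.57% and 3.09% of T donors, where all junctions with a gene gave 2.23% and 2.56%. With A, 2.28% gained in HG3 and 2.32% in MEC1, and with C 2.16% and 2.39%. These are shares of donors that other transcripts read through, not of all donors. G donors thus gained most often in both lines, at the same share.

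Several junctions with a larger gain in HG3 gained in both lines. In EWSR1, which encodes an RNA-binding protein, the upstream donor with G at the sixth base, shown above, took 71.5% of acceptor reads in mutant HG3 (894 of 1251, interval 68.9 to 73.9) against 6.1% in wild-type HG3. In MEC1 it took 36.0% (471 of 1307, interval 33.5 to 38.7) against 3.6%. The difference of changes was 32.9 points (28.8 to 36.9). In JVM3 the same junction was at 36.8% against 5.2%, close to MEC1. CS, the citrate synthase gene, gained at chr12:56680429-56692393, to 44.0% in the mutant HG3 column against 3.1% in the wild-type one and 19.9% against 0.6% in MEC1. An unannotated junction of GATAD1 (chr7:92080293-92083816) was at 40.0% of 100 reads against 0 of 107 reads in HG3, and at 11.1% of 190 reads against 0 of 189 reads in MEC1. A count of 0 of 107 allows a share of up to 3.5% by the Wilson interval.

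Other junctions gained in HG3 with little change in MEC1. In NUMA1, a mitotic spindle protein gene, chr11:71747021-71752005 was at 65.1% against 33.8% in HG3 and at 17.9% against 17% in MEC1, a difference of 30.4 points (17.7 to 42.4). In SETD5 (chr3:9476314-9476508) it was at 57.7% against 32.9% in HG3 and 12.9% against 17.8% in MEC1. ITGB1BP1 and PFKM, the muscle phosphofructokinase gene, differed by 26.0 and 20.1 points, and NT5C2, a nucleotidase gene, by 27 points, with changes of -6.8 to 5.0 points in MEC1 over the 5 genes.

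In the other direction, GAS5, a host gene of small nucleolar RNAs, gained more in MEC1. The donor with G at the sixth base took 93.5% (5400 of 5774) in the mutant HG3 column against 82.5% in the wild-type one, and 64.8% (2467 of 3809) against 29.1% in MEC1. Both lines gained, with a difference of -24.6 points (-27 to -22.1). The wild-type columns of the lines were far apart at this junction, and 82.5% leaves less room to gain than 29.1%. MITD1 was at 5.7% against 2.7% in HG3 and at 65.7% against 38.5% in MEC1 (chr2:99787115-99787973). Its donor, caggtatgTga, has T at the sixth base. ACOT9, an acyl-CoA thioesterase gene, was at 12.1% against 9.6% in HG3 and 53.9% against 25.6% in MEC1 (chrX:23751334-23754036). JMJD1C, a histone demethylase family gene, was at 5.8% against 2.8% in HG3 and 36.3% against 10.7% in MEC1 at an unannotated junction (chr10:64975215-64976967). IFI44 and MAIP1 differed by -20.7 and -21.5 points, and AP1G1 by -25.5 points, with gains in MEC1 of 24.6 to 27.4 points in the 3. IFI44 was at 5.9% against 1.1% in HG3 and at 49.7% against 24.3% in MEC1, so its wild-type columns also lay apart. A difference in points depends on the wild-type share, for these junctions and those above, and relative gains were not compared. RPS24, a ribosomal protein gene with an alternatively spliced 3' end, had 85.1% of 23320 reads in mutant against 85.4% of 22202 reads in wild-type HG3, and 89.6% of 20106 reads against 75% of 21268 reads in MEC1 (chr10:79797062-79800373).

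**Figure D5:**
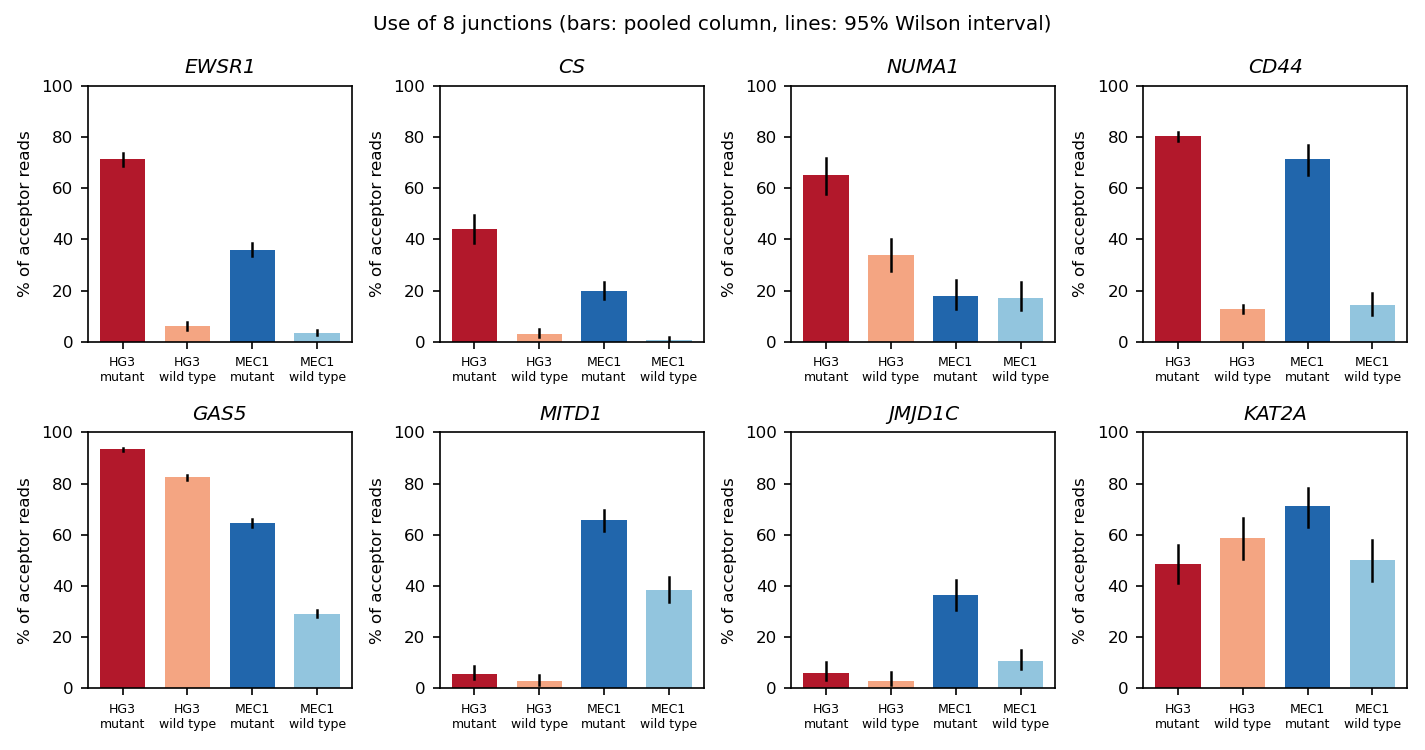
Use of 1 junction in each of 8 genes, in percent of acceptor reads, in the pooled mutant and wild-type columns of HG3 and MEC1, with 95% Wilson intervals as lines. EWSR1, CS and CD44 gained in both lines, NUMA1 in HG3, MITD1 and JMJD1C mainly in MEC1, GAS5 in both with the larger gain in MEC1, and KAT2A moved in opposite directions.

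Opposite changes of at least 10 points were seen at 8 of 35640 junctions with at least 100 acceptor reads, an intron of at least 60 bases and a gene, at 5 acceptors. In KAT2A, a histone acetyltransferase gene, the donor with G at the sixth base was at 48.6% of 173 reads in mutant against 58.7% of 143 reads in wild-type HG3, and at 71.3% of 129 reads against 50% of 148 reads in MEC1. Its difference was -31.5 points (-46.6 to -15.5). CRK, an adaptor protein gene, changed by 17.2 points in HG3 and -12.7 points in MEC1. With 1 column per group, these have no replicate check.

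The 3 genes that the published study names changed in both lines; since that study may have chosen them on these samples, they are no independent evidence of direction. In CD44, a hyaluronan receptor gene, the donor at 35232996 took 80.3% in the mutant HG3 column against 12.9% in the wild-type one, and 71.4% against 14.2% in MEC1, a difference of 10.3 points (3.1 to 18.6). The competing donor, ccagtaagGag, which lost reads, also has G at the sixth base. In MSI2, the gene of Musashi-2, the unannotated junction chr17:55448352-55478740 was at 42.4% against 1.1% in HG3 and 32.8% against 1.6% in MEC1, a difference of 10.1 points (0.8 to 19.2). In POLD1 the annotated junction chr19:50912923-50916683 fell by 24.5 points in HG3, where it rested on 43 acceptor reads in the mutant column, and by 25.5 points in MEC1, a difference of 1.0 (-15.8 to 15.8).

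The largest junction differences by size alone were at places of doubtful reading. On chromosome 5, 149781336 to 149781402, a junction with no gene matched had 1757 of 1757 acceptor reads in mutant against 0 of 1587 in wild-type HG3, and 1627 of 3084 against 2067 of 3157 in MEC1. An RPL11 junction (chr1:24020403-24021170) had 542 of 610 reads in mutant MEC1 and 0 in the other 3 columns. In all, 345 junctions had at least 100 reads in 1 of the 4 columns and 0 in another, where the deposited counts held 170723 junctions. This count takes in every such junction, and how many of them are doubtful was not tested. ODR4 and MED31 were also among the 6 largest above 0, with 51 to 107 acceptor reads per column and differences of 42.9 (22.7 to 61.5) and 36.8 points (13.2 to 57.5).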

How the data were processed

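Stranded, ribodepleted total RNA was sequenced from Trizol extracts. Reads were handled with STAR 2.5.4b and HTSeq 0.9.1 on hg19/GRCh37, per the submitters' processing notes. The authors deposited raw counts per gene and library (57820 genes), and junction counts with 1 pooled column per line and U1 status, which allow no test. Rows naming no gene were left out; reads without a feature came to 17.72% to 24.93%. No column went unmapped. Symbols came from the reference tables for 39629 IDs.

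Counts were fitted with edgeR 4.0.16 (R 4.3.3; robust quasi-likelihood fit, TMM factors, filterByExpr, group means, 8 libraries, no covariate), and p-values were adjusted by Benjamini-Hochberg over 19951 genes. The script was tested on simulated data. DESeq2 1.42.0, other scaling, filters and omitted libraries were alternatives. The replicates of a group differed by more than sampling noise (mean chi-square per gene 2.28 to 5.29) and were kept as 2.

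Named genes were the 10 largest differences each way (mean of at least 2 CPM, same sign in all 16 replicate pairings), the 6 largest with opposite signs in the lines each way, the 5 largest at 100 CPM or more, the U1 genes and up to 4 members of each list by p. After the data were seen, the same rules with at least 2 CPM in each line, and a junction rule of at least 100 acceptor reads, an intron of at least 60 bases and a gene, were added, and exceptions within lists, FASN and other members outside these rules were named. Members and lists were chosen with earlier results of these data known. Junctions were tied to genes by matching intron lengths to GENCODE release 29 (91.8% of 43534 clusters placed); no coordinate was converted. Confidence intervals (95%, Wilson) and floors cover counting error only, since reads without molecular identifiers are not independent molecules. A few items that these rules name are not reported here.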

Additional observations from a re-analysis of the deposited data

Results flagged for a closer look

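The response to mutant U1 differed between HG3 and MEC1 by a test of the difference itself at 4368 genes (edgeR, Benjamini-Hochberg adjusted). Among named genes of at least 2 CPM in each line whose mutant libraries moved in opposite directions in the lines, the log2 differences were -2.94 for TLR4, -2.8 for GBP5 and -1.55 for E2F1. On the other side they were 1.92 for RPL13AP5, 1.73 for SBF2, 1.7 for ALPK2, 1.63 for LINC02615, 1.47 for UNC13B and 1.43 for MAPK10. The call of RPL13AP5 was lost without most libraries taken singly, and its reads may belong to its parent gene. Junctions of CRK and KAT2A moved in opposite directions in the pooled columns, with differences of 29.9 and -31.5 points, and these differences were not tested. Groups of 2 libraries are too small for a check of single libraries that stand apart.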

How the results depend on the processing

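The count of genes whose response differed, 4368, was 1538 when edgeR tested against a fold of 1.2, and the counts within the lines were then 3406 for HG3 and 2732 for MEC1. It was 4304 with DESeq2's scaling factors in edgeR, 4159 without a filter, 3263 with DESeq2, 4633 with all 12 libraries and 3323 to 4249 without any 1 library. The share above 0 was 43.4%, and 33.4% without replicate 2 of mutant HG3 (1128 above, 2247 below). The replicate numbers of the labels mark no shared source; same-numbered libraries had correlations of deviations of 0.11 to 0.23, and a replicate block gave 5279 calls (8710 in HG3, 8492 in MEC1) and ended no call of a named gene. No named gene changed direction under any alternative run, and 85 of 110 kept the call under all of them. Named genes were chosen largely by a call with the same sign in all 16 replicate pairings, or by low p. That choice favours such an outcome, so it is no independent check. The call of PLS3 was lost without either mutant MEC1 library or replicate 1 of wild-type MEC1 (adjusted p 0.0907 to 0.14 by edgeR), and that of MT-RNR1 with 12 libraries (0.69). Of 270 recomputed list medians, 57 moved by more than their spread over replicate pairings, by at most 0.18. The count of 338 junctions became 1159 at 20 acceptor reads, 99 at 100 reads and 2547 at 10 points. Junctions used more in mutant JVM3 had medians in HG3 and MEC1 of 21.2 and 19.9 points at 20 reads, 34.9 and 31.2 at 100 reads and 33.3 and 29 as shares of donor reads; those used less had -21.6 and -18.8, -36.6 and -32.4, and -33.2 and -28.0. Pooled columns leave junctions with no replicate check.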
